A study of Mus musculus with 2 samples.

Results

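The mir-148/152 family of microRNAs was followed in mouse hindbrain at embryonic day 13.5, a stage at which the neurons of the brainstem and cerebellum are being generated. The family is made up of the genes Mir148a, Mir148b and Mir152. These are the 3 rows, of 1973 gene rows in all, whose Ensembl identifiers belong to genes of those names in the GENCODE mouse annotation, so the rule that finds them uses no measured value. All 3 were detected, which here means at least 10 counts in both libraries, as were 356 genes in the whole table. The tissue came from healthy embryos of the B6NCrl strain, with male and female embryos pooled and no treatment or mutation named. The 2 libraries of short RNA, with fragments under 30 nt kept, are biological replicates 1 and 2 and form 1 group. They carry 1 donor identifier and separate tissue identifiers. Since no label states that separate litters were used, the p-values below compare these samples only, and differences between them may be technical in part. Those of the exact binomial test take counting error as the only error and do not measure the spread between samples. With a single tissue at a single stage the design allows levels and a comparison of the libraries, and no comparison between conditions.

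A microRNA is cut from a hairpin precursor, and either arm of the hairpin can be loaded into an Argonaute protein, where its seed, bases 2 to 8 from the 5′ end, pairs with messenger RNAs and represses them. The mir-148/152 family acts mainly through its 3p arms. In human cells its members are known to repress the DNA methyltransferase DNMT1 and the immune molecule HLA-G, and in mouse dendritic cells they repress Camk2a, a calcium-dependent kinase. miR-148a is known as an abundant microRNA of liver and as a regulator of lipoprotein uptake there.

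The mature RNAs are shown first because the shared seed defines the family and the few bases beyond it are what tell the members apart in sequencing reads. They are RefSeq sequences on GRCm38.p6, written 5′ to 3′, with bases 2 to 8 in capitals.
miR-148a-3p: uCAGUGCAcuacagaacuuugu
miR-148b-3p: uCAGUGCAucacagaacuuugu
miR-152-3p: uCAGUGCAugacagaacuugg
miR-148a-5p: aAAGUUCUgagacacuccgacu
miR-148b-5p: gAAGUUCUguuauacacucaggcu
miR-152-5p: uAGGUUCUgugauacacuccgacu

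The 3p arms all carried the seed CAGUGCA. Compared base by base from the 5′ end with no gaps, miR-148a-3p and miR-148b-3p were identical at 20 of 22 positions and differed by C9U and U10C, with the miR-148a base first. miR-148b-3p and miR-152-3p were identical at 19 of 21 positions and differed by C10G and U20G, with the miR-148b base first. miR-148a-3p and miR-152-3p were identical at 18 of 21 positions. Every difference therefore lay downstream of the seed. Of the 5p arms, those of Mir148a and Mir148b shared the seed AAGUUCU, while that of Mir152 had AGGUUCU. The deposited counts are per gene, so the arms cannot be told apart in them.

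The hairpins are shown with the 3p arm in capitals, because the counts are assigned to them.
Mir148a hairpin: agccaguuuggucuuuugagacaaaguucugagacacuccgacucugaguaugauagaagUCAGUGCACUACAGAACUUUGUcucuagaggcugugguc
Mir148b hairpin: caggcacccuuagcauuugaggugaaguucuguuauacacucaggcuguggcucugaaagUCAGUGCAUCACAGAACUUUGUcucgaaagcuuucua
Mir152 hairpin: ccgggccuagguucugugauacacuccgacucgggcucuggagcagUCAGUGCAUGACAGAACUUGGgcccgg

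The hairpins of Mir148a and Mir148b were 99 and 97 nt long and that of Mir152 was 73 nt long. Between the arms lay 16 nt in Mir148a, 13 nt in Mir148b and 15 nt in Mir152. Reads that map to several places were set aside in the deposited counting, so stretches shared with other hairpins matter for the values. The longest stretch that Mir148a shared with any of 2201 other microRNA hairpins was 15 nt, with Mir148b, and for Mir152 it was 12 nt, with Mir148a. None of the 3 shared a stretch of 20 nt with another hairpin. Whether any read of one member was counted on another was not tested.

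The unit of level is CPM, a gene's counts scaled to 1000000 counts over the gene rows of the same library. Those rows held 4508244 counts in replicate 2 and 3006571 in replicate 1. Mir148a and Mir148b were present at near equal levels close to the median detected microRNA gene, with Mir152 well below them.

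Mir148b had 740 counts or 164 CPM in replicate 2 (exact Poisson 95% interval 153 to 176) and 574 counts or 191 CPM in replicate 1 (176 to 207). Mir148a had 719 counts or 159 CPM in replicate 2 (148 to 172) and 568 counts or 189 CPM in replicate 1 (174 to 205). In both libraries these genes stood next to each other, and in both the lower value came from replicate 2. Mir152 had 155 counts or 34.4 CPM in replicate 2 (29.2 to 40.2) and 129 counts or 42.9 CPM in replicate 1 (35.8 to 51.0). Its highest value lay below every value of the other members.

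**Figure D1:**
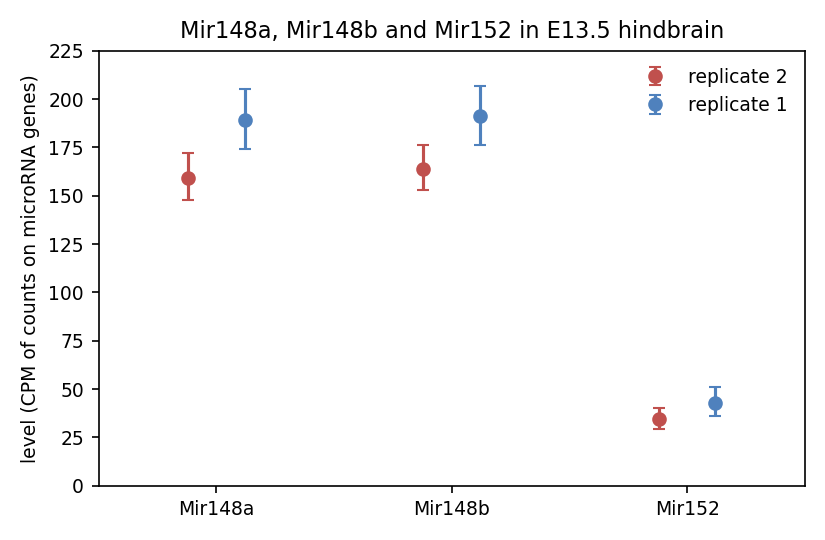
Level of each family member in CPM (vertical axis) in replicate 2 (red) and replicate 1 (blue), with exact Poisson 95% intervals for counting error. Mir148a and Mir148b sit between 159 and 191 CPM, Mir152 between 34.4 and 42.9 CPM, and for each gene the replicate 2 point is the lower one.

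Averaged over the libraries, Mir148b reached 178 ± 18.9 CPM, Mir148a 174 ± 20.8 CPM and Mir152 38.6 ± 6.03 CPM (SD, n = 2 each). The order Mir148b, Mir148a, Mir152 held in both libraries, but its first step was within error. The ratio of Mir148b to Mir148a was 1.03 in replicate 2 (exact 95% interval 0.928 to 1.14) and 1.01 in replicate 1 (0.898 to 1.14). Their mean difference was 3.33 CPM. Both genes were lower in replicate 2, so their SDs hold a shift that they share and do not measure the error of this difference. The step down to Mir152 was larger than the spread between libraries. Mir148a exceeded Mir152 by 4.64-fold in replicate 2 (3.89 to 5.55) and by 4.40-fold in replicate 1 (3.63 to 5.37), on the counts. Divided by hairpin length, the same ratio was 3.42 in replicate 2 and 3.25 in replicate 1. Fragments under 30 nt were kept, shorter than any of the hairpins, so counts need not scale with hairpin length. The division is therefore an alternative scaling and not a correction. No test over samples was run on these steps, which rest on 2 libraries.

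The make-up of the family was nearly the same in both libraries. Mir148a held 44.5% of the family's counts in replicate 2 (Clopper-Pearson 95% interval 42.1 to 47.0) and 44.7% in replicate 1 (41.9 to 47.5). Mir148b held 45.8% in replicate 2 (43.4 to 48.3) and 45.2% in replicate 1 (42.4 to 47.9). Mir152 held 9.60% in replicate 2 (8.21 to 11.1) and 10.1% in replicate 1 (8.54 to 11.9). Each replicate 2 share lay inside the replicate 1 interval.

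**Figure D2:**
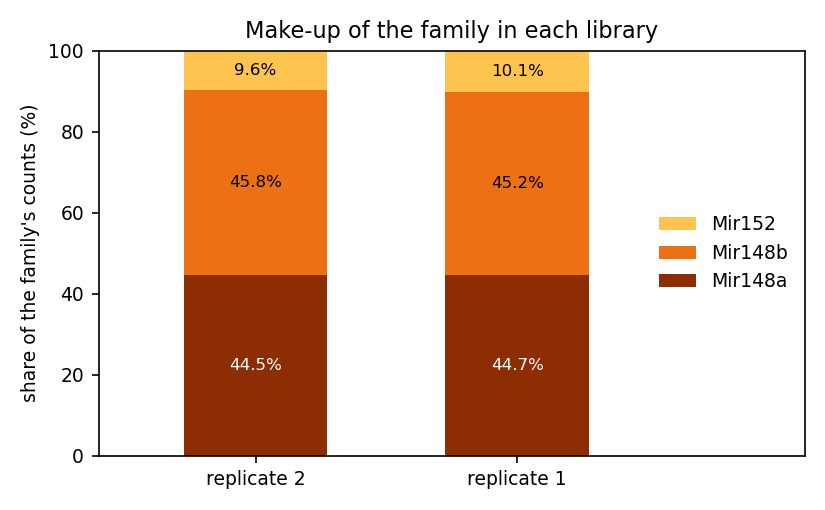
Share of the family's counts in percent (vertical axis) taken by each member in replicate 2 and replicate 1. Mir148a and Mir148b each hold between 44.5% and 45.8% in both libraries and Mir152 holds 9.60% and 10.1%.

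Summed, the family had 358 CPM in replicate 2 (exact Poisson 95% interval 341 to 376) and 423 CPM in replicate 1 (400 to 447), or 390 ± 45.8 CPM (SD, n = 2). That is 0.0390% ± 0.00458 of the counts on microRNA genes. By mean CPM, Mir148b ranked 174, Mir148a 175 and Mir152 256 of the 356 detected genes, whose median was 166 CPM. The pair thus lay near the middle of the detected genes, and 80 detected genes stood between Mir148a and Mir152. Multimapping reads were set aside, so genes that share stretches with other hairpins may be counted too low. The ranks and the share of the family may be too high for that reason.

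**Figure D3:**
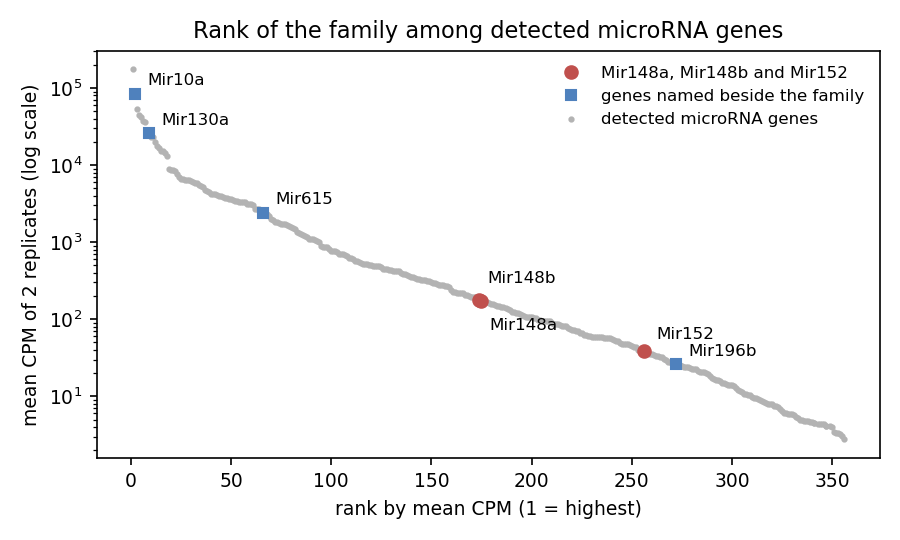
Mean CPM of the replicates on a log scale (vertical axis) against rank among the 356 detected microRNA genes (horizontal axis). Mir148b and Mir148a lie side by side at ranks 174 and 175 and Mir152 at rank 256, with Mir10a, Mir130a, Mir615 and Mir196b marked because they are described beside the family.

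The detected genes whose level in both libraries lay nearest to each member were found by the distance between log2 CPM values over the 2 libraries. The nearest gene to Mir148a was Mir148b, and the nearest to Mir148b was Mir148a, at a distance of 0.0442. Next to both came Mir199b, a microRNA of mesenchyme, which stood at 152 CPM in replicate 2 against 194 CPM in replicate 1, at 0.0787 from Mir148a and 0.112 from Mir148b. Mir199b shares stretches of 20 nt with 2 other hairpins, so its value is uncertain. The genes nearest to Mir152 were Mir1198, with 37.0 CPM in replicate 2 against 40.9 CPM in replicate 1 at a distance of 0.128, and Mir30c-2, with 32.6 and 38.9 CPM in replicates 2 and 1 at 0.160. Mir30c-2 shares a stretch of 20 nt with Mir30c-1. With 2 libraries this likeness is one of level only.

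All 3 members were lower in replicate 2 than in replicate 1, by a similar factor. The log2 ratio, replicate 2 over replicate 1 with trimmed-mean (TMM) library sizes, was -0.28 for Mir148a (95% counting interval -0.44 to -0.12), -0.25 for Mir148b (-0.41 to -0.09) and -0.35 for Mir152 (-0.70 to -0.01). These correspond to 0.824, 0.840 and 0.783 of the replicate 1 level. In a two-sided exact binomial test of the counts, adjusted by the Benjamini-Hochberg method across all 356 detected genes, Mir148a (adjusted p = 0.00195) and Mir148b (adjusted p = 0.00504) passed the threshold of 0.05. Mir152, which had the fewest counts, did not (adjusted p = 0.0904).

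These calls stand against a high background. The same test called 45.2% of all detected genes, and 25.0% of all detected genes were called lower in replicate 2. It takes counting error as the only error and compares these libraries, not conditions. The median log2 ratio of all detected genes was -0.01 and 96 of them had a larger absolute ratio than Mir148a, 117 than Mir148b and 68 than Mir152. edgeR's exact test with the common biological coefficient of variation of 0.141, estimated from these libraries, called 1.40% of the genes and none of the members (adjusted p = 1.00 for each, unadjusted p = 0.357 for Mir148a, 0.403 for Mir148b and 0.316 for Mir152, with 19 of 356 genes below 0.05). That coefficient comes from the same 2 libraries that the test compares, so a gene that is not called there is not shown to be equal in them. The difference between the libraries was thus past counting error for Mir148a and Mir148b.

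**Figure D4:**
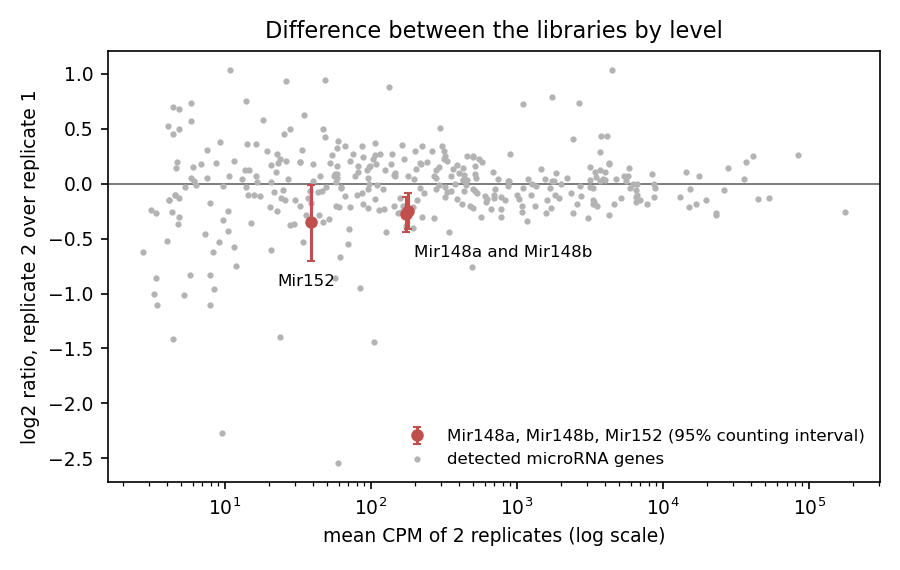
Log2 ratio of replicate 2 over replicate 1 (vertical axis) against mean CPM on a log scale (horizontal axis) for the 356 detected genes (grey) and the family (red, with 95% counting intervals). The members lie between -0.25 and -0.35, below the line at 0 and inside the cloud of the other genes.

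Several lists of microRNAs that mark other cell types also had unequal sums in the libraries, and their part in the family's values was not tested. In bulk tissue, fewer cells of a type and less RNA per cell cannot be told apart. Counts of members called by the exact binomial test are to be read against the 25.0% of all detected genes called lower and the 20.2% called higher in replicate 2.

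Cell type lists with lower sums in replicate 2 and more members called lower than higher were those of the pancreas, mesenchyme, vessels and muscle. The pancreas and endocrine list, led by Mir375 and with 4 of 4 members detected, came to 1486 CPM in replicate 2 against 1797 CPM in replicate 1. Of its members 3 were called lower and 0 higher. For mesenchyme, where 4 of 5 microRNAs were detected, the sums were 3844 and 4539 CPM in replicates 2 and 1. Of its members 3 were called lower and 0 higher. Mir199b of that list shares stretches of 20 nt with Mir199a-1 and Mir199a-2, so the sum is uncertain in part. For endothelial and mural cells, where all 3 measured microRNAs were detected, the sums were 25286 and 27312 CPM in replicates 2 and 1, with 2 called lower and 0 higher. The muscle microRNAs, 3 of 8 measured ones above the detection minimum, came to 90.1 CPM in replicate 2 against 152 CPM in replicate 1. They went both ways, with Mir208b and Mir208a called lower and Mir206 called higher, at 64.1 CPM in replicate 2 against 32.6 CPM in replicate 1. Mir133a-1, Mir133a-2 and Mir1a-1 were at 0 in both libraries, which allows up to 0.665 CPM in replicate 2 and up to 0.998 CPM in replicate 1. Each of them shares stretches of 20 nt with another hairpin and multimapping reads were set aside, so these zeros do not show that the RNAs were absent.

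Other lists were higher in replicate 2, or had a lower sum there with as many members called lower as higher. The Hox cluster microRNAs, whose Mir10a and Mir10b mark hindbrain and trunk, came to 135699 CPM in replicate 2 against 111478 CPM in replicate 1. Of 6 members 4 were detected, and all 4 were called higher. The choroid plexus and multiciliated microRNAs, of which 6 of 7 were detected, came to 9694 CPM in replicate 2 against 4991 CPM in replicate 1, with 4 called higher and 0 lower. The blood microRNAs, all 6 of them detected, came to 460 and 497 CPM in replicates 2 and 1. Among them the erythroid Mir451a was called lower, at 57.5 and 152 CPM, and Mir155 was called higher, at 186 and 142 CPM. The neural microRNAs, of which 6 of 10 were detected, came to 11580 and 11666 CPM in replicates 2 and 1. Mir153 and Mir219a-2 were called lower and Mir9-3 and Mir338 higher, although Mir219a-2 and Mir9-3 share stretches of 20 nt with other copies and are uncertain. More than any other gene, Mir137 carries that sum, at 6281 CPM in replicate 2 against 6132 CPM in replicate 1. The Mir124a copies, which mark neurons, had at most 23 counts each in a library. All 3 share stretches of 20 nt with each other and multimapping reads were set aside, so their values are uncertain and do not show a low level of the mature RNA.

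Liver is of interest because miR-148a is abundant there. The hepatocyte microRNA Mir122 had 42.8 CPM in replicate 2 against 36.9 CPM in replicate 1, so it was present, and at a level near that of Mir152. The liver list as a whole, with 3 of 4 members detected, summed to 185 CPM in replicate 2 against 168 CPM in replicate 1. It was higher in replicate 2 in value, but none of its genes passed the exact binomial test. Mir194-1 and Mir194-2 of that list share a stretch of 20 nt with each other, so its sum is uncertain. Whether liver RNA added to the Mir148a counts was not tested.

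Among 1738 mature mouse microRNAs of the RefSeq table, only the 3p arms of Mir148a, Mir148b and Mir152 had CAGUGCA at bases 2 to 8. The same letters stood 1 base further upstream, at bases 1 to 7, in mature RNAs of 7 genes, which include Mir130a, Mir130b and Mir301. These genes were looked for after the family's values were seen. The RefSeq table holds 1005 hairpins against 1973 gene rows, so genes with these letters may be missing from the set. Mir301b, at 170 CPM in replicate 2 and 219 CPM in replicate 1, is not among the 7. The mature RNA of Mir130a is shown with the shared letters in capitals, because it sets the scale for the family.
miR-130a-3p: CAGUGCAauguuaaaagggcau

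Because the shared letters begin at its first base, the seed of miR-130a-3p is AGUGCAA, so the 2 families overlap in sequence and have different seeds. Of the 7 genes, 6 have a row, and these summed to 34757 CPM in replicate 2 against 35706 CPM in replicate 1, a mean 90.3 times that of the mir-148/152 family. Mir130a made up most of it, at 25887 CPM in replicate 2 against 26264 CPM in replicate 1. Mir130b had 6439 and 6732 CPM in replicates 2 and 1, and Mir301, the source of miR-301a-3p, 2431 and 2709 CPM. Mir130c, Mir6341 and Mir6389 had 0 counts in both libraries, which allows up to 0.665 CPM in replicate 2 and up to 0.998 CPM in replicate 1. All values here are per hairpin, and the hairpins of Mir130a, Mir130b and Mir301 share no stretch of 20 nt with another.

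Other microRNAs reported to repress DNA methyltransferases, mostly in human cells, gave a further scale. Of the 8 genes in that list 6 were detected, and the 8 rows summed to 32021 CPM in replicate 2 against 34602 CPM in replicate 1, a mean 85.3 times that of the mir-148/152 family. Nearly all of the sum came from Mir126a, a microRNA of endothelium, at 18917 CPM in replicate 2 against 20540 CPM in replicate 1, Mir143, of smooth muscle and mural cells, at 6291 and 6689 CPM, and Mir342, at 6167 and 6783 CPM. These 3 were lower in replicate 2 past the exact binomial test and no gene of the list was called higher, although Mir185, Mir29a and Mir29c were higher in value, against 25.0% of all detected genes called lower and 20.2% called higher. The list's median log2 ratio was -0.02.

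The mir-148/152 family, at 390 ± 45.8 CPM, lay above the mir-29 family, which represses the de novo methyltransferases Dnmt3a and Dnmt3b and summed to 183 ± 17.1 CPM over its 4 genes (SD, n = 2 each). The mir-29 sum was 195 CPM in replicate 2 against 171 CPM in replicate 1, and the ranges of the families over the libraries did not overlap. Mir29c had 105 and 92.1 CPM in replicates 2 and 1 and Mir29a 87.4 and 76.5 CPM. Mir29b-1 and Mir29b-2 had at most 9 counts in a library. These copies share stretches of 20 nt, and Mir29c shares one with Mir29b-1, so the sum over these genes is uncertain. The mir-148/152 family lay below the mir-101 family, known for repressing the histone methyltransferase gene Ezh2, whose 2 measured genes summed to 2084 CPM in replicate 2 against 1890 CPM in replicate 1 and share a stretch of 20 nt with each other. In replicate 2 the mir-148/152 family had its lower sum, and the mir-29 and mir-101 families their higher one. With 1 group of 2 libraries, a difference between families was not tested.

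The genes lie on 3 chromosomes of GRCm38. Mir148a (ENSMUSG00000065505.1) is at chr6:51269812-51269910 on the minus strand. It overlaps no other annotated gene on either strand and is intergenic, 163 kb from Nfe2l3, the nearest protein-coding gene. Mir148b (ENSMUSG00000065560.1) is at chr15:103285125-103285221 on the plus strand, in intron 1 of 8 of Copz1. Mir152 (ENSMUSG00000065515.1) is at chr11:96850393-96850465 on the plus strand, in intron 1 of 8 of Copz2, 523 bases from the start of that gene. Neither hairpin overlapped an exon of any annotated transcript of its host. All 4 annotated transcripts of Copz1 span Mir148b, while 3 of the 5 of Copz2 span Mir152. Copz1 and Copz2 encode related zeta subunits of the COPI coat, which carries vesicles from the Golgi to the endoplasmic reticulum. The intron numbers are those of the principal transcript of each host. Host transcripts were not measured in these libraries, so a link between the hosts and the levels of Mir148b and Mir152 was not tested.

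All 3 genes lie on a chromosome that carries a Hox cluster, the sets of genes that pattern the hindbrain and trunk along the body axis. Each Hox cluster also holds microRNA genes. Within 1000 kb of Mir148a lay Mir196b, at 960 kb, within that distance of Mir148b lay Mir615 at 270 kb and Mir196a-2 at 312 kb, and of Mir152 lay Mir10a at 533 kb and Mir196a-1 at 585 kb. Of all 16 microRNA rows within this distance of a member, only Mir196b, Mir615 and Mir10a, 1 for each member, were detected. Across all 1973 gene rows the detected share was 18.0%, close to that among these neighbours. The count of detected neighbours is thus no sign of a pattern at these loci.

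**Figure D5:**
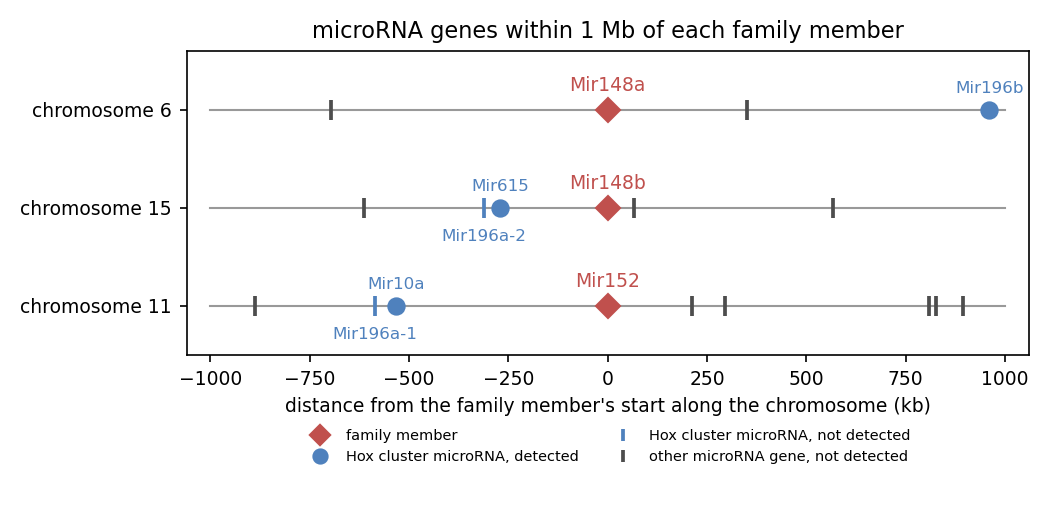
Positions of microRNA genes within 1000 kb of each family member, as distance in kb from the member's start along the chromosome (horizontal axis), 1 chromosome per row. Each member (red) has 1 detected neighbour, the Hox cluster microRNA Mir196b, Mir615 or Mir10a (blue circles), and the other rows (ticks) were not detected.

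These neighbours stood in a different order of level from the members they lie near. Whether their levels vary with those of the family was not tested, as there are 2 libraries of 1 group. Mir196b, of the HoxA cluster, had 34.4 CPM in replicate 2 against 17.6 CPM in replicate 1, below Mir148a in both. Mir615, in the HoxC cluster, had 2787 and 2053 CPM in replicates 2 and 1, above Mir148b, and Mir10a, in the HoxB cluster, had 92739 and 75367 CPM, above Mir152. The lowest member of the family thus lies on the chromosome of the highest of these neighbours. The log2 ratios, replicate 2 over replicate 1, were 0.93 for Mir196b, 0.41 for Mir615 and 0.26 for Mir10a, where the members had negative ratios. For Mir196a-2 there were 7 counts in replicate 2 and 2 in replicate 1, and for Mir196a-1 there were 1 and 0. The hairpins of this pair share a stretch of 20 nt, which makes their values uncertain.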

How the data were processed

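Short RNA from embryonic day 13.5 mouse hindbrain was sequenced in 2 libraries. Each deposited table holds 1 library as raw counts of reads on microRNA genes, made on mm10 with GENCODE annotation M4, per the README text deposited with them. The authors used an aligner and a counter not given in the sources used here. Of 3 count columns, either strand and each strand alone, the single-strand column that held 98.1% of counts on genes in both libraries was used. In replicates 2 and 1 the gene rows held 47.5% and 49.0% of all reads, multimapping reads 34.5% and 33.9%, unmapped reads 14.6% and 14.0%, and reads outside any feature 3.39% and 3.15%. The 4 summary rows stayed out of library sizes and tests. Gene names and loci came from GENCODE M21 on GRCm38, the assembly mm10 denotes, which named 1894 of 1973 rows. All 3 members matched RefSeq sequences.

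Intervals and floors (3 counts for a count of 0) are at 95% and cover counting error only. The libraries were compared by a two-sided exact binomial test given TMM library sizes from edgeR 4.0.16, with Benjamini-Hochberg adjustment over 356 genes. It was tried beforehand on simulated counts that held counting error only, so the trial does not cover further spread between real libraries. edgeR's quasi-likelihood test was not run, because a comparison of these libraries leaves 1 library on each side and no replicates. Alternatives were library totals, DESeq2 1.42.0 size factors, the either-strand column, no filter, all reads as denominator, hairpin length, edgeR's exact test and each library alone. Besides the members, the genes named included the 2 nearest in level to each and some microRNA rows within 1000 kb. They also included genes with the seed letters 1 base further upstream, and selected genes of the lists. The list genes were not always the highest of their list. Among them were genes called by the exact binomial test, genes with few or no counts and genes that share stretches. The rows of the members were found by name, but this family and the lists were picked with earlier results of these data known.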

Additional observations from a re-analysis of the deposited data

How the results depend on the processing

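Of 51 values recomputed from both libraries, over 14 results, 36 stayed unchanged. Here that means within 1 SD between the libraries, on the same side of the threshold or within 1.5 times the count. None of the ratios changed sign. Changes of library size by TMM or DESeq2 nearly cancel in a mean over the 2 libraries, and dropping the filter leaves each ratio as it was. Part of the 36 could therefore hardly have moved. With all reads as the denominator the levels were 84.1 CPM for Mir148a, 85.7 CPM for Mir148b, 18.7 CPM for Mir152 and 189 CPM for the family, because the gene rows hold 47.5% of all reads in replicate 2 and 49.0% in replicate 1. Per hairpin length, a scaling that these short fragments need not follow, the family shares became 42.7% for Mir148a, 44.5% for Mir148b and 12.8% for Mir152. With edgeR's exact test the log2 ratios of -0.28 for Mir148a and -0.25 for Mir148b were no longer past the threshold (adjusted p = 1.00 for both, against 0.00188 to 0.00779 for Mir148a and 0.00494 to 0.0176 for Mir148b under the other alternatives), and 5 genes were called in place of 161. Mir152 was past the threshold under none of these (adjusted p from 0.0704 to 1.00). With 2 libraries, either one alone lies within 1 SD of their mean by construction, so the values that follow are no sign of stability. With each library alone, Mir148a ranged from 159 to 189 CPM with 44.5% to 44.7% of the family, Mir148b from 164 to 191 CPM with 45.2% to 45.8%, Mir152 from 34.4 to 42.9 CPM with 9.60% to 10.1%, and the family from 358 to 423 CPM. Of 15 recomputed ranks 7 moved past the spread of ranks between the libraries, with the either-strand column at 184 for Mir148a, 183 for Mir148b and 267 for Mir152. No paired analysis was possible because the design has 1 group. With 129 and 155 counts, Mir152 is the member that depth limits most.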
